A study of Homo sapiens with 8 samples.

Results

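Cytokine genes of the IL1, IL6 and TNF families were followed across 8 arrays of DAOY cells, an established human medulloblastoma line. The genes were IL1A, IL1B, IL6, LIF, IL11, IL24, TNF, CSF2 and CSF3, taken as all probes whose platform annotation names a listed gene. Of these 9 genes, 8 had a probe, with 10 probes among the 19715 that name a gene, and CSF2 was not analysed here. The genes were chosen by their measured values, since earlier results of the same arrays were known, among them higher mean IL1B, LIF, IL6, IL1A and TNF in MXD3 lines than in controls. The differences between those groups below are therefore a description and support no test.

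The groups were 5 numbered DAOY lines stably carrying the plasmid pHM6-MXD3, 2 numbered lines stably carrying the empty pHM6 vector, and 1 array of parental DAOY cells, the last with no transgene. Per the labels' protocols, selection and later culture of the plasmid lines used G418 at 800 µg/ml, and no drug is named for the parental cells. MXD3 is a transcription factor that pairs with MAX and represses genes activated by MYC. The labels do not say whether a line is a clone or a pool, or when each was grown, so a p-value reflects only how these samples vary, which may be technical, and drug selection and parental identity cannot be told apart.

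IL1A and IL1B are the ligands of the receptor IL1R1 and, like TNF through its own receptors, activate the transcription factor NF-kB. IL6, LIF and IL11 bind separate receptor chains that share the gp130 subunit, encoded by IL6ST, and signal through JAK kinases and STAT3. IL24 belongs to the IL10 family and also signals through STAT3, while CSF2 and CSF3 are growth factors of myeloid cells. NF-kB and AP-1 drive many of these genes, and in solid tumours both tumour cells and stromal cells can secrete IL6.

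The arrays detected 60.5% to 64.0% of 22184 probes, at a detection p-value below 0.05. MXD3 itself, read by 1 probe, had a log2 intensity of 7.47, 7.22, 6.98, 8.08 and 6.18 in the arrays labelled MXD3 lines 1 to 5, against 6.93 and 6.71 in vector lines 1 and 2 and 6.59 in parental cells. Between the MXD3 lines and vector and parental lines this probe differed by 0.44 ± 0.35 (SE, adjusted p = 0.647 in limma). Higher MXD3 in the MXD3 lines as a group was thus not established, and MXD3 line 3 was only just above vector line 1. The lowest value, under every control, was that of the array labelled MXD3 line 5. That value goes against the label of MXD3 line 5, unless the probe misses the transgene, which was not analysed. The values of MXD3 line 5 are kept under its label. Without that array the 4 largest cytokine differences from vector and parental lines were close to their full values. On the log2 scale they were 1.30 for IL1A, 3.01 for IL1B, 1.59 for IL6 and 1.76 for LIF. Of 22 neural and medulloblastoma markers with a probe, 11 to 13 were detected per array, including ZIC2, GLI2, PAX6 and SOX2 on all 8, while ATOH1, ZIC1, BARHL1, GLI1, NES and DCX were not detected on any. All levels below are background-corrected, quantile-normalized log2 intensities, and a level of one gene is never set against another's outside the marker sums.

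IL1B, LIF, IL6 and IL1A had their 4 highest values in the arrays labelled MXD3 lines 2 to 5, while MXD3 line 1 lay below vector line 1, the highest control. LIF and IL6 were lowest in vector line 2 and the parental cells, which did not detect IL1B. IL1A departed from this in the parental cells, which lay above MXD3 line 1 and near vector line 1. TNF, IL11, IL24 and CSF3 had other orders of the arrays. No member had all 5 MXD3 arrays above all 3 controls (0 of 8 members, where 3.84% of all genes did) or above both vector lines (0 of 8, against 6.59%). The differences between group means described below therefore rest on groups that overlap.

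IL1B, the inducible IL1 ligand that caspase-1 processes, had log2 intensities of 6.78, 9.79, 9.61, 10.30 and 9.72 in the arrays labelled MXD3 lines 1 to 5, against 7.78 and 4.95 in vector lines 1 and 2 and 5.60 in parental cells. In the deposited intensities, which include the background, this was 284, 1049, 1023, 1269 and 950 in the MXD3 lines, against 343 and 148 in vector lines 1 and 2 and 185 in parental cells. IL1B was detected in all 5 MXD3 lines and in vector line 1 but not in vector line 2 or the parental cells. Averaged, IL1B was at 9.24 ± 1.40 (SD, n = 5) in MXD3 lines and 6.11 ± 1.48 (SD, n = 3) in vector and parental lines, a log2 difference of 3.13 ± 0.83 (SE), or 8.74-fold. Of the 3 controls 2 did not detect IL1B, and without background correction the difference was 1.86. MXD3 line 1 lay below vector line 1, so the groups overlapped. Fewer cells with a transcript and less transcript per cell cannot be told apart in such bulk RNA. Relative to the parental array, where IL1B was below detection, the mean of the MXD3 lines was at least 12.1-fold higher. The bound was set against the lowest signal detected on that array. It holds for the mean and for background-corrected values only, and MXD3 line 1 (6.78) lay far below that mean (9.24).

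IL1A, the IL1 ligand that is active without cleavage, read 9.89, 12.53, 12.01, 11.54 and 11.71 in the arrays labelled MXD3 lines 1 to 5, against 10.82 and 9.25 in vector lines 1 and 2 and 10.50 in parental cells. The arrays labelled MXD3 lines 2 to 5 lay above every control, and MXD3 line 1 lay below vector line 1 and the parental cells. The MXD3 lines exceeded vector and parental lines by 1.34 ± 0.55 (SE) on the log2 scale, and the vector lines alone by 2.82-fold. Without vector line 2 the log2 difference of IL1A was 0.87 from vector and parental lines and 0.71 from vector line 1, and without vector line 1 it was 2.28 from vector line 2. For IL1B the difference from vector line 1 alone was 1.46.

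IL6, the founding gp130 cytokine, read 10.95, 13.18, 13.35, 12.60 and 12.67 in the arrays labelled MXD3 lines 1 to 5, against 12.54 and 9.64 in vector lines 1 and 2 and 10.61 in parental cells. Vector line 1 lay just below the arrays labelled MXD3 lines 4 and 5 and far above MXD3 line 1, and the 2 vector lines differed from each other by 2.90, or 7.45-fold. The log2 difference was 1.62 ± 0.67 (SE) against vector and parental lines and 1.46 ± 0.81 against the vector lines. Without vector line 2 it was 0.98 and 0.01, so the MXD3 mean of IL6 was almost that of vector line 1. Without vector line 1 it was 2.91 against vector line 2.

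LIF, a gp130 cytokine that maintains stem cells in the mouse, read 8.55, 10.12, 9.54, 10.04 and 9.78 in the arrays labelled MXD3 lines 1 to 5, against 9.32 and 6.88 in vector lines 1 and 2 and 7.22 in parental cells. All 8 arrays detected it. As for IL1B, every control was exceeded by the arrays labelled MXD3 lines 2 to 5, and vector line 1 exceeded MXD3 line 1. The log2 difference was 1.80 ± 0.54 (SE) against vector and parental lines, or 3.48-fold, and 1.51 ± 0.63 against the vector lines. Without vector line 2 these were 1.34 and 0.29, and without vector line 1 the value against vector line 2 was 2.73.

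The arrangement seen in these genes, with the arrays labelled MXD3 lines 2 to 5 above all controls and MXD3 line 1 below vector line 1 as the highest control, held in 4 of 8 members and in 1.47% of all genes. It was chosen after the values were seen. Vector line 2 was the lowest of the 8 arrays for IL1A, IL6 and LIF, 3 of the 8 members, where 14% of all genes had their lowest value on that array. The 14% was counted whether or not a gene was detected there, and by that rule it was 4 of 8 members, with IL1B. For IL1B, not detected in vector line 2 or the parental cells, these arrays have no order.

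**Figure D1:**
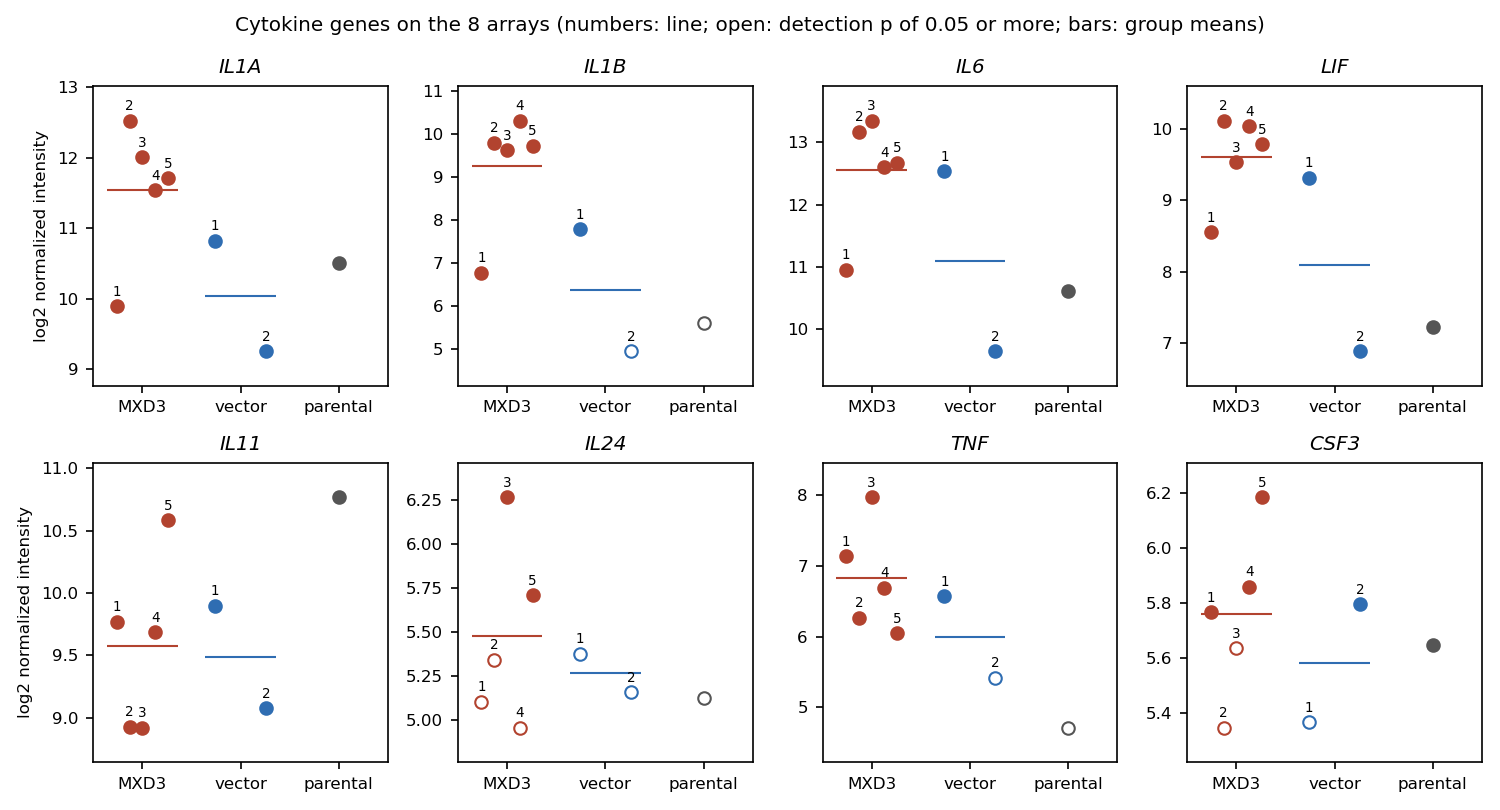
Log2 normalized intensity (vertical axis, scaled per gene) of the 8 measured cytokine genes in the MXD3 lines, vector lines and parental cells, with each point an array numbered by its line. Open points were not detected (detection p of 0.05 or more) and bars are group means. For IL1A, IL1B, IL6 and LIF, the arrays labelled MXD3 lines 2 to 5 sit above every control while MXD3 line 1 sits below vector line 1.

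TNF, the ligand of TNFRSF1A and TNFRSF1B, read 7.14, 6.27, 7.97, 6.69 and 6.05 in the arrays labelled MXD3 lines 1 to 5, against 6.57 and 5.42 in vector lines 1 and 2 and 4.71 in parental cells. It was detected in all 5 MXD3 lines and in vector line 1 only among the controls. MXD3 lines 3, 1 and 4 lay above vector line 1 and the arrays labelled MXD3 lines 2 and 5 below it, so the order of the MXD3 lines differed from that of IL1B. The log2 difference was 1.26 ± 0.49 (SE) against vector and parental lines and 0.83 ± 0.51 against the vector lines, and the value against the vector lines was 0.25 without vector line 2. Without background correction the difference of TNF from vector and parental lines was 0.53, and 2 of these 3 controls did not detect it. Relative to the parental array, which did not detect TNF, the mean of the MXD3 lines was at least 2.27-fold higher in background-corrected values. That bound holds for the mean (6.82) only. The arrays labelled MXD3 lines 2 (6.27) and 5 (6.05) lay nearer the lowest signal detected on the parental array (5.64).

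IL11, a gp130 cytokine with its own receptor chain, read 9.77, 8.93, 8.92, 9.68 and 10.58 in the arrays labelled MXD3 lines 1 to 5, against 9.90 and 9.08 in vector lines 1 and 2 and 10.77 in parental cells. The parental array was the highest of all 8, and the MXD3 lines lay on both sides of vector line 1. The log2 difference was -0.34 ± 0.44 (SE) against vector and parental lines and 0.09 ± 0.45 against the vector lines, and it changed sign to 0.09 without the parental array. IL11 thus differed by less than the spread between lines.

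IL24 and CSF3 were close to the detection limit. IL24 passed the detection filter through the array labelled MXD3 line 5 (5.71) and MXD3 line 3 (6.27), and the other 3 MXD3 lines, both vector lines and the parental cells (4.95 to 5.37) did not detect it. Its second probe was detected on 1 array, vector line 1, and differed by 0.02 on the log2 scale from the 3 controls. CSF3 was detected in 3 MXD3 lines, vector line 2 and the parental cells, with 5.35 to 6.18 in MXD3 lines, against 5.37 and 5.80 in vector lines 1 and 2 and 5.65 in parental cells. Its difference of 0.16 ± 0.19 (SE) was within the error, and its second probe was detected on no array.

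Over the 8 measured members the median log2 difference was 1.30 against vector and parental lines, where all 12162 genes tested had a median of 0.00. A log2 difference above 1 was found for 5 of 8 members and for 0.436% of all genes. Against the vector lines the median was 1.14, all 8 members had higher means (50.6% of all genes did), and 4 of 8 differed by more than 1 (0.477% of all genes). IL1B, TNF and IL24 passed the filter only with the MXD3 arrays, which favours higher values there. The members were also proposed for these differences, so the counts are descriptive. Limma's test, adjusted over all genes, called 0 of 8 members in either comparison, and 0% of all genes (0 of 12162). At an unadjusted p under 0.05, 1424 genes (11.7%) passed against vector and parental lines and 942 (7.75%) against the vector lines.

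**Figure D2:**
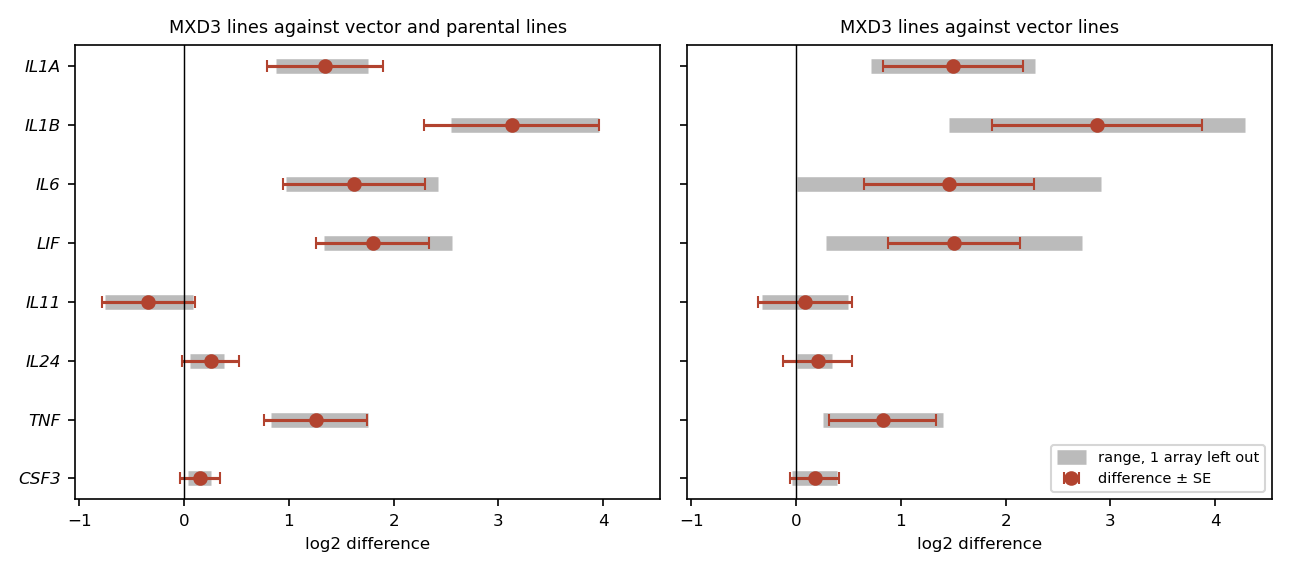
Log2 difference (horizontal axis) of each measured cytokine gene between the MXD3 lines and the controls named above each panel, with points and SE bars from limma and grey bands for the range when 1 array is left out. IL1B had the largest difference in both panels (3.13 and 2.87), and the band of IL6 against the vector lines reached 0.01.

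The controls themselves were set against each other, since both vector lines and the parental cells lack the MXD3 plasmid. Vector line 1 exceeded vector line 2 by 2.90 for IL6, 2.44 for LIF and 1.57 for IL1A on the log2 scale, more than the MXD3 lines exceeded either set of controls. Vector line 2 did not detect IL1B or TNF, so vector line 1 was at least 4.29-fold higher for IL1B and at least 1.85-fold higher for TNF. The mean of the vector lines differed from the parental array by 0.48 ± 1.19 (SE) for IL6, 0.88 ± 0.92 for LIF, -0.46 ± 0.98 for IL1A and -1.28 ± 0.66 for IL11. For IL1B the vector mean differed from the parental array by 0.77 ± 1.46 (SE) and for TNF by 1.28 ± 0.75. Neither vector line 2 nor the parental array detected either gene, so no lower bound can be given. Limma called none of the 8 members there (adjusted p = 0.746 to 0.994), against 0.00822% of all genes. The comparison of MXD3 lines with the parental array shares its arrays with the others. Its log2 differences were 2.38 ± 0.82 for LIF, 1.94 ± 1.07 for IL6, 1.04 ± 0.87 for IL1A and -1.19 ± 0.59 for IL11, none of them called (0.00822% of all genes).

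The promoters of 4 of the genes are shown because IL1A, IL1B and IL6 had the same 4 highest arrays while IL11 did not. They are the 250 bases before the annotated start, 5′ to 3′ along the gene, from RefSeq on GRCh38.p14, and capitals mark matches to the searched motifs. Of the 9 listed genes 7 had a promoter in this table, and LIF and CSF3 had none.
IL1A (chr2:112784494-112784743, minus strand): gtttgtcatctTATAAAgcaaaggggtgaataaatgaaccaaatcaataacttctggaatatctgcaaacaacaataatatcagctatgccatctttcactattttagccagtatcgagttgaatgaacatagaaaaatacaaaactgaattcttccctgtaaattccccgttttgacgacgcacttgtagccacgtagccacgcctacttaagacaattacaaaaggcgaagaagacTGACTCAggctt
IL1B (chr2:112836780-112837029, minus strand): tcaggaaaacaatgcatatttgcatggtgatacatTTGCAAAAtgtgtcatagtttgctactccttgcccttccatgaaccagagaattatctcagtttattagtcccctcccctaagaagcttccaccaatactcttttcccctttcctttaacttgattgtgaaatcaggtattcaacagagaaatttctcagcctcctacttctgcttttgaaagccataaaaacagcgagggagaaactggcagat
IL6 (chr7:22726950-22727199, plus strand): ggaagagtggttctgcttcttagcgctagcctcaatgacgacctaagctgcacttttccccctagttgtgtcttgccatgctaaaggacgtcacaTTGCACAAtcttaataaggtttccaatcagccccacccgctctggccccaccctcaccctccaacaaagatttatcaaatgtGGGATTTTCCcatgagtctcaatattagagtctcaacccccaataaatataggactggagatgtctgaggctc
IL11 (chr19:55370464-55370713, minus strand): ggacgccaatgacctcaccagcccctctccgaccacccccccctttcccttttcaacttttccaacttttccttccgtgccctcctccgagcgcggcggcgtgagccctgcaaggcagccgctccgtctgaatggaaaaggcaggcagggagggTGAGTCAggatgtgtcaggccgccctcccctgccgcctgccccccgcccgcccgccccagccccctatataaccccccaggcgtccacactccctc

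Motifs were searched on both strands, and no match overlapped another. The letters TGANTCA of AP-1, a dimer of FOS and JUN proteins, were found before IL1A and IL11 and in 6.57% of 35116 promoters of that length. The NF-kB consensus (kB) was found before IL6, as GGGATTTTCC ending 63 bases before the start, and in 7.46% of promoters. The letters TTGCNNAA of C/EBP factors were found before IL1B and IL6 and in 9.05% of promoters, and TATAAA before IL1A and TNF and in 10.7%. The E-box CACGTG, which MYC and MXD proteins bind with MAX, was in none of the 7 windows and in 6.34% of all promoters. A match describes letters only, and the absence of one says that these letters are not in this window.

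Genes around the cytokines were taken from lists of other ligands, receptors, signal relay, transcription factors, mRNA decay and targets. None of their members passed limma's test over all genes in either comparison, so what follows is given as values, against vector and parental lines unless stated. Among other ligands of the families 15 of 31 genes with a probe passed the detection filter, 9 with higher means, with a median log2 difference of 0.18. The TNF family ligand TNFSF15 differed by 0.45 ± 0.15 (SE) and TNFSF12 by 0.70 ± 0.26, while TNFSF9 was at -0.43 ± 0.18 and TNFSF4 at -0.67 ± 0.30. These are separate genes of the TNF superfamily, and their signs were divided.

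Receptor genes lay on both sides of 0. Of 11 measured receptor genes 4 had higher means, and the median was -0.20. The receptor gene with the smallest p was IL1R1, the signalling receptor of IL1A and IL1B, at 6.21, 6.35, 6.12, 5.95 and 6.26 in the arrays labelled MXD3 lines 1 to 5, against 5.80 and 4.95 in vector lines 1 and 2 and 5.14 in parental cells. All 5 MXD3 lines lay above all 3 controls, with a log2 difference of 0.88 ± 0.19 (SE, adjusted p = 0.283 in limma), an arrangement found in 3.84% of all genes. IL1R1 was detected in 5 of 5 MXD3 lines and in vector line 1 only among the controls. The IL6 receptor chain IL6R was at -0.50 ± 0.20, the TNF receptor TNFRSF1B at -0.61 ± 0.28 and IL20RB, a receptor chain for IL24, at -0.47 ± 0.24.

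Signal relay and transcription factors differed little as groups, with medians of 0.08 over 23 genes (15 higher) and 0.03 over 17 genes (9 higher). TOLLIP, an adaptor that dampens IL1 receptor signals, was at 7.79, 8.07, 8.11, 8.17 and 8.21 in the arrays labelled MXD3 lines 1 to 5. It was at 7.58 and 7.32 in vector lines 1 and 2 and 7.16 in parental cells, a difference of 0.72 ± 0.15 (SE, adjusted p = 0.255 in limma). The kinase gene JAK2 differed by 0.49 ± 0.17, the adaptor genes TRAF6 by 0.32 ± 0.13 and TRADD by 0.32 ± 0.18. TOLLIP, JAK2 and TRAF6, but not TRADD, had all 5 MXD3 arrays above all 3 controls, an arrangement found in 3.84% of all genes. Among NF-kB subunits RELB differed by 0.57 ± 0.20, RELA by 0.34 ± 0.14 and NFKB2 by 0.40 ± 0.26, and the AP-1 gene FOSL1 by 0.54 ± 0.25. FOSL1 was low in MXD3 line 1 (9.45) next to 10.19 to 10.54 in the arrays labelled MXD3 lines 2 to 5, against 10.01 and 9.31 in vector lines 1 and 2 and 9.54 in parental cells.

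Of 13 genes for mRNA decay and stability, 8 had higher means (median 0.08). ZFP36 and ZFP36L1, which encode proteins that bind AU-rich elements and speed the decay of cytokine mRNAs, had lower means, at -0.47 ± 0.23 and -0.39 ± 0.13 (SE). ZFP36 read 8.80, 8.15, 8.13, 7.87 and 8.47 in the arrays labelled MXD3 lines 1 to 5, against 8.39 and 8.83 in vector lines 1 and 2 and 9.06 in parental cells. Its highest MXD3 value was that of line 1, the array in which IL1B, IL6, LIF and IL1A were lowest among MXD3 lines. TNF and IL11 went the other way. In MXD3 line 1, TNF (7.14) lay above the arrays labelled MXD3 lines 2, 4 and 5, and IL11 (9.77) above lines 2, 3 and 4. The part of either gene in the cytokine levels was not tested.

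Of 22 measured targets of IL1 and TNF 19 had higher means, with a median log2 difference of 0.52, and without vector line 2 these were 14 of 22 and 0.28. None was called, and 50.5% of all genes had higher means. The chemokine CCL2 differed by 1.28 ± 0.48 (SE), the NF-kB inhibitor TNFAIP3 by 0.99 ± 0.39, the early response gene IER3 by 0.81 ± 0.33 and the pentraxin PTX3 by 1.33 ± 0.56. PTX3 read 10.37, 12.61, 11.13, 11.51 and 11.49 in the arrays labelled MXD3 lines 1 to 5, against 11.45 and 9.31 in vector lines 1 and 2 and 9.50 in parental cells. As with IL6, MXD3 line 1 and vector line 2 were the low arrays of their groups.

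Of 18 measured targets of the gp130 cytokines 10 had higher means, with a median of 0.07. MYC, which STAT3 can induce, differed by 0.55 ± 0.15 (SE), and SOCS1, a feedback inhibitor of JAK kinases, by 0.43 ± 0.15. VEGFA was at 0.48 ± 0.23 and the fibrinogen gene FGA at -0.33 ± 0.20. None of these passed over all genes.

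**Figure D3:**
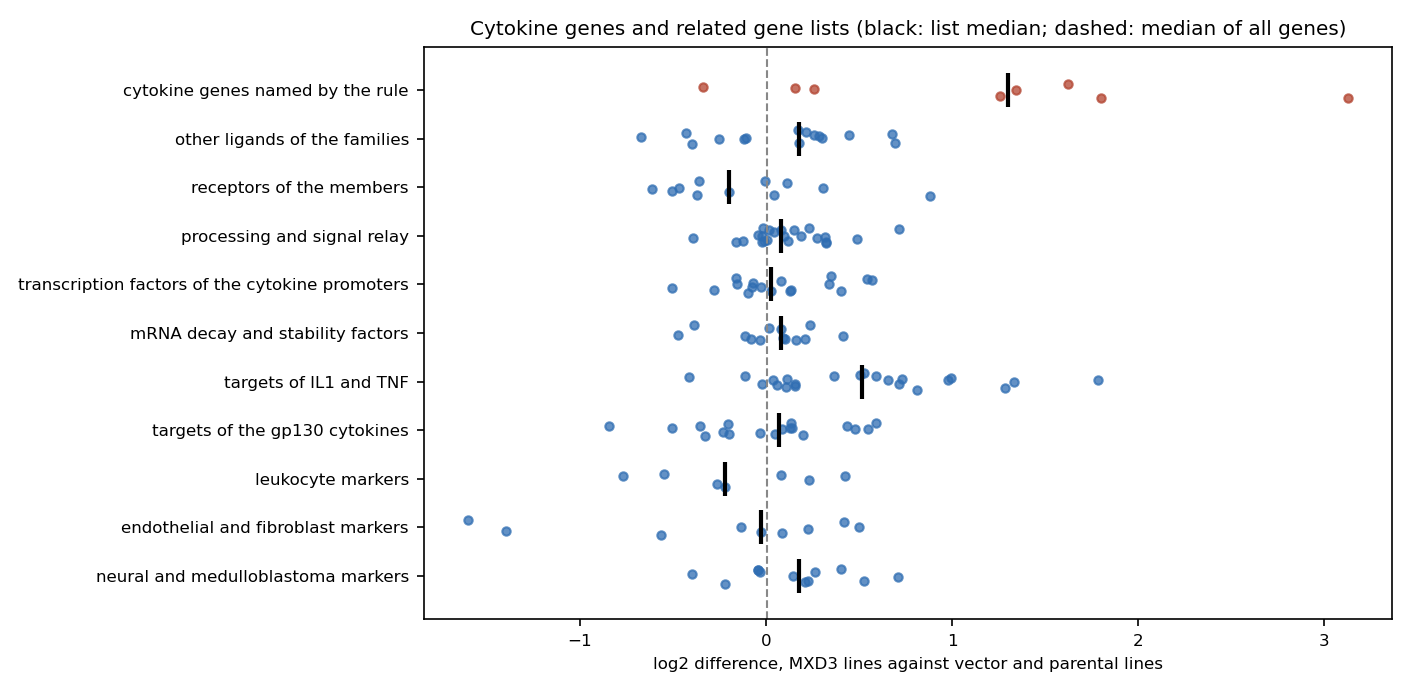
Log2 difference between MXD3 lines and vector and parental lines (horizontal axis) of every measured gene in each list, with each point a gene, black bars list medians and the dashed line the median of all genes. The cytokine genes have a median of 1.30 and the targets of IL1 and TNF 0.52, while the receptors have -0.20.

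The genes whose levels most resembled the cytokines were ranked by Pearson's r over the 8 arrays, among 1208 non-member genes with an SD of at least 0.5. These r describe arrays that fall into high and low sets and carry no p. IL6 was followed most closely by the chemokine gene CXCL8 (r = 0.967), then by PDCD1LG2, which encodes an immune checkpoint ligand (0.941), CRIM1 (0.939), CCL2 (0.934) and RBM24 (0.930). CXCL8 read 11.19, 13.63, 13.58, 13.31 and 13.86 in the arrays labelled MXD3 lines 1 to 5, against 13.91 and 9.22 in vector lines 1 and 2 and 10.87 in parental cells. Vector line 1 was thus the highest array for CXCL8, above every MXD3 line.

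LIF was followed by DENND2A (r = 0.987), METRN (0.976), TNFAIP3 (0.970), the protease gene CTSS (0.967) and KLHL4 (0.964). CTSS and KLHL4 were detected in only 1 of the 3 controls, so their r rests partly on undetected values. DENND2A, which encodes a regulator of a Rab GTPase, read 9.92, 11.26, 10.87, 11.51 and 10.80 in the arrays labelled MXD3 lines 1 to 5, against 10.35 and 8.59 in vector lines 1 and 2 and 8.55 in parental cells. IL1B was followed by the ubiquitin ligase gene RNF182 (0.975), DENND2A (0.972), the autophagy gene WIPI1 (0.967), CRIM1 (0.965) and AZIN2 (0.959). Every r with IL1B rests partly on vector line 2 and the parental cells, which did not detect IL1B. AZIN2 itself was detected in 2 of the 3 controls. The mean of all 8 members, each centred on its own mean, was -0.40, 0.55, 0.77, 0.57 and 0.66 in the arrays labelled MXD3 lines 1 to 5, against 0.07 and -1.37 in vector lines 1 and 2 and -0.87 in parental cells. CRIM1, PDCD1LG2, METRN, DENND2A and WIPI1 followed this mean most closely (r = 0.945 to 0.960).

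**Figure D4:**
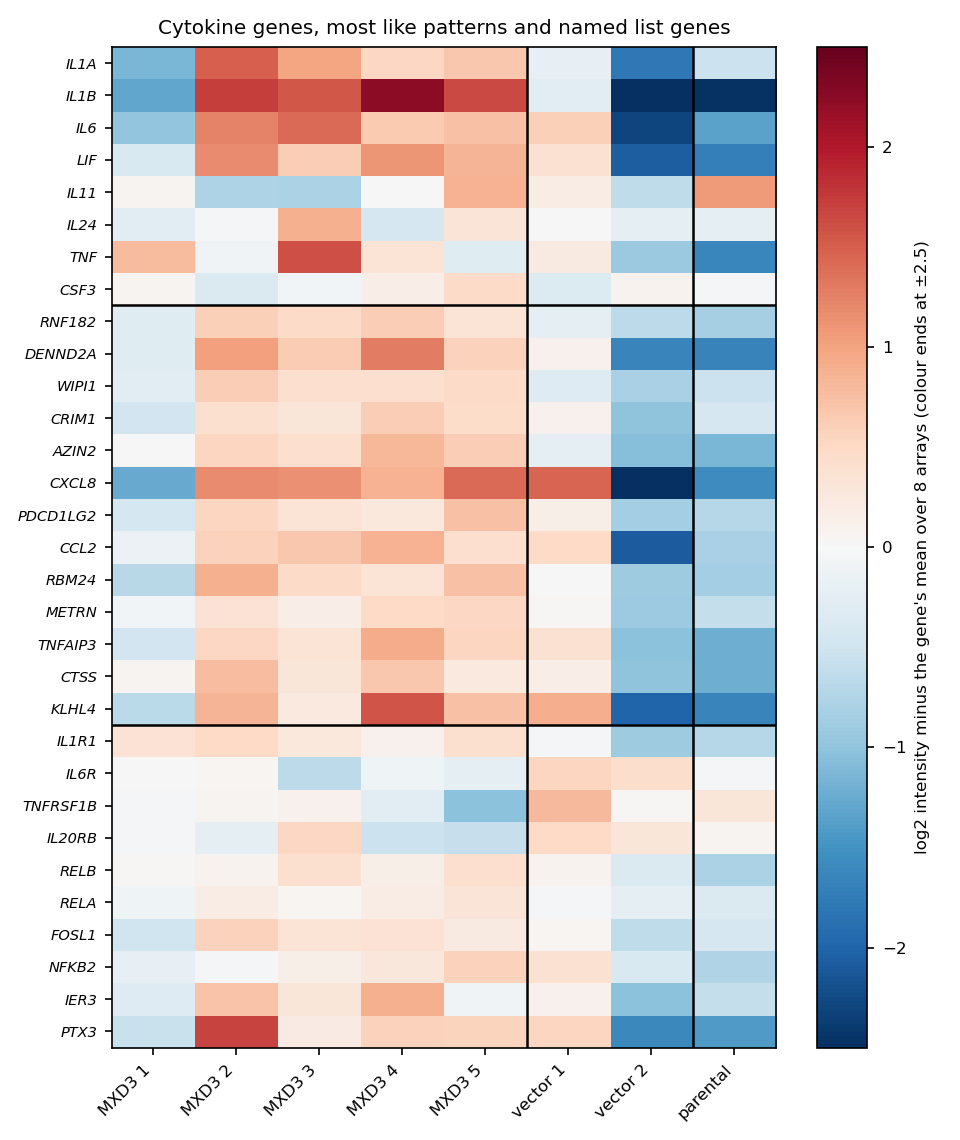
Log2 intensity minus each gene's mean over 8 arrays (colour, red above and blue below the mean, ending at ±2.5) for the 8 cytokine genes, the genes of most like pattern and named genes of the receptor, transcription factor and target lists, with MXD3 lines left of vector lines and parental cells. CXCL8 and CCL2 share the low MXD3 line 1 and vector line 2 of IL6, while the receptors IL6R and IL20RB do not.

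Blood cells are a rich source of these cytokines, and their markers were read on the same arrays. Of 19 leukocyte markers with a probe 6 to 8 were detected in MXD3 lines and 5 to 8 in vector and parental lines. Their summed normalized intensity was 4450 to 5992 in MXD3 lines, against 4541 to 5747 in vector and parental lines. CD68 and NCAM1 made up most of this sum on every array, so it says little of the other markers. CD14, LYZ, ITGAM, TYROBP, AIF1, CD3D, CD79A, MS4A1 and KLRD1 were not detected on any array. Of 7 leukocyte markers that passed the filter 3 had higher means, with a median log2 difference of -0.22. PTPRC, the common leukocyte antigen gene, differed by -0.55 ± 0.25 (SE) on the probe detected on 5 arrays and by 0.37 on another detected on 3, so its probes disagreed. The T cell receptor complex gene CD3E differed by 0.43 ± 0.15. CSF1R, a myeloid receptor gene, read 8.77, 7.87, 7.90, 8.19 and 8.65 in the arrays labelled MXD3 lines 1 to 5, against 7.78 and 9.62 in vector lines 1 and 2 and 9.74 in parental cells, so its 2 highest arrays were those that did not detect IL1B. Endothelial and fibroblast markers summed to 16777 to 20820 in MXD3 lines, against 18026 to 19485 in vector and parental lines. COL1A1 and THY1 held most of that sum on each array. Of the endothelial and fibroblast markers, 4 of 9 that passed the filter had higher means (median -0.02). Among them COL3A1 differed by -1.60 ± 0.57 (SE) and LUM by -1.40 ± 0.50, while PDGFRB differed by 0.50 ± 0.29 and THY1 by 0.42 ± 0.19. LUM was detected in 2 of 5 MXD3 lines. The part of these markers in the cytokine levels was not tested.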

How the data were processed

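Total RNA of 8 DAOY samples was read on Illumina bead arrays. BeadStudio is named, with no version, per the submitters' processing notes. The deposited non-normalized table holds a linear intensity per probe and array, without background subtraction, and a detection p-value. The deposited series matrix gives intensity too, and each of its columns is linear in the first table to within 0.0121, so each array was shifted and scaled. The basis of both constants is not stated in those notes.

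The neqc function of limma 3.58.1 (R 4.3.3, offset 16) inferred the negative controls through the detection p-values, removed background, normalized by quantiles and returned log2 values. Probes with a detection p-value below 0.05 on at least 2 arrays were kept, and the probe with the highest mean stood for its gene, which left 12162 genes. Platform symbols were updated through Entrez IDs to RefSeq (GRCh38.p14), and 2469 probes had no symbol in the annotation used. Limma's lmFit and eBayes gave two-sided tests, adjusted by Benjamini-Hochberg across the 12162 genes and called below 0.05, in 2 groups (MXD3, and vector with parental) or 3 groups. The 3-group fit assumes that the lone parental array varies like the others. The number of arrays limits the precision. The script was tested on simulated data.

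Members, lists and tests were chosen with earlier results of these data known. All members were named. Of each other list, genes past the threshold, or else the 4 with the smallest p, could be named. Marker genes were also named for their detection or their weight in a sum. The 5 genes of highest r stood for like patterns. Alternatives were no background correction, the series matrix values floored at 16, other detection filters, averaged probes, each array left out and the line number as a block.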

Additional observations from a re-analysis of the deposited data

Results flagged for a closer look

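The member probes, MXD3, the genes of smallest p in each list and those of most like pattern were checked. An MXD3 line far from the other 4 was sought, by the gap to the nearest line over the whole range. The limit of 0.71 is passed in about 1 of 20 groups by chance, and 5 of 62 passed, all with MXD3 line 1 as the low array. The share was 0.8045 for IL1B (6.78 next to 9.61), 0.793 for CXCL8 (11.19 next to 13.31), 0.7742 for WIPI1 (9.23 next to 9.93), 0.722 for CRIM1 (9.97 next to 10.75) and 0.7122 for RNF182 (8.66 next to 9.31). CXCL8, WIPI1, CRIM1 and RNF182 were named for their likeness to IL6 or IL1B, so they are no separate evidence. Without MXD3 line 1 the log2 difference of IL1B was 3.74 against vector and parental lines and 3.49 against the vector lines.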

How the results depend on the processing

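The median log2 difference of the members kept its sign against vector and parental lines (0.93 to 1.71 with 1 array left out, 0.89 to 1.51 otherwise) and against the vector lines. There it was 0.27 to 1.84 with 1 array left out, lowest without vector line 2 and highest without vector line 1. Against the parental array it was 0.94 without background correction and 2.03 with a detection p-value below 0.01, which left 6 members. For vector lines against the parental array it was -0.50 without vector line 1 and 1.09 without vector line 2. No gene was called against vector and parental lines except 1, MAL2, without MXD3 line 1 (0 to 1), and none against the vector lines. Against the parental array the count was 3 without background correction and 2 with series matrix values, and for vector lines it was 0 without either vector line (0 to 1), with fewer arrays. The causes were otherwise not tested. Of 212 member differences under alternatives, 205 moved by less than 1 SD of the MXD3 lines. The 7 that moved further were in IL1B, IL6 and LIF, each with vector line 1 or vector line 2 left out. The count of 205 does not measure stability. Other detection filters and averaged probes left the member differences unchanged, and leaving out the parental array cannot move a difference from the vector lines. The SD was 1.40 for IL1B and 0.76 for TNF, so the falls given next counted as within it. Without background correction the difference from vector and parental lines was 1.86 for IL1B (3.13 with it) and 0.53 for TNF (1.26 with it). The 7 sign changes were a separate set, in IL11, IL24 and CSF3. With the line number as a replicate block, which 2 shared numbers allow, the median against the vector lines was 0.84 and 0 genes were called. Arrays of the same number did not deviate together (r = -0.309 and -0.179 across genes). IL24 and CSF3 lie near background, which limits both.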

Other observations

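The nearest 3 protein-coding genes on each side of the cytokine genes were also read, since IL1A and IL1B are neighbours, TNF lies between LTA and LTB, LIF beside OSM and IL24 beside IL20. Of 48 neighbours outside the listed genes, 40 had a probe and 26 passed the detection filter, with a median log2 difference of 0.09 between MXD3 lines and vector and parental lines (-0.73 to 0.43). Of these 26, 17 had higher means and 9 lower. CKAP2L, a mitotic spindle gene beside IL1A and IL1B, differed by 0.37 ± 0.21 (SE), and the lymphotoxin genes LTA and LTB beside TNF by 0.30 ± 0.22 and 0.21 ± 0.24. Lower means included NCR3 near TNF (-0.50 ± 0.17), RPL28 near IL11 (-0.44 ± 0.22) and THRA near CSF3 (-0.73 ± 0.23). OSM was detected on 1 array, and IL20, detected on 4, differed by 0.26 ± 0.20. IL36G was detected on 1 array, and IL36A and IL37 on none.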
